A study of Mus musculus with 30 samples.

Results

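The keratins and adhesion genes of the prostate epithelium were examined in the ventral prostate (VP) of the mouse. They were 10 genes, found by symbol among 39179 gene identifiers: 4 genes of basal cells (Krt5, Krt14, Krt15 and Trp63), 4 genes of luminal cells (Krt8, Krt18, Krt19 and Krt4) and 2 genes shared by both cell types (Epcam and Cdh1). All 10 were matched once, had counts in each of the 30 mice and passed the filter on low counts in every comparison. The lowest count of any of them in any mouse was 66.

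RNAseq was run on whole VPs of male C57BL/6 mice, with 5 mice for each of 3 diets at each of 2 time points. From weaning on the mice received isocaloric diets with the same fat content, whose lipid source was linseed oil (LO), soybean oil (SO) or pork fat, that is processed lard (PF). The VPs were taken after 12 or 32 weeks. All mice were unmodified animals of 1 inbred strain, no group on another diet was analysed here, and the later mice were also older, so diet duration, age and any batch of a time point cannot be told apart.

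In the prostate gland a layer of tall luminal cells secretes into the lumen and rests on scattered basal cells, which lie on the basement membrane. Keratins form the intermediate filaments of both layers in pairs of an acidic and a basic type: KRT5 pairs with KRT14 or KRT15 in basal cells, and KRT8 pairs with KRT18 or KRT19 in luminal cells. The transcription factor TRP63 (p63) marks the basal layer and is needed for its formation, KRT4 marks luminal cells near the urethra, and EPCAM and the E-cadherin CDH1 are cell adhesion proteins of epithelia in general.

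Each mouse had between 27590631 and 41301707 counts on genes. The secretory genes of the VP were present in every mouse, led by Sbp, the spermine binding protein, with 76822 to 268984 CPM (counts scaled to a common library size, with TMM over the 30 mice). The 7 seminal vesicle genes looked at summed to at most 0.337 CPM in any mouse. The 6 mice numbered 1, 1 in each group, stood apart from the other 24. Of 13753 genes with a mean of at least 1 CPM, 9.24% had their highest value of the group in mouse 1 in all 6 groups. Calls and the values that rest on these mice are therefore also given without them.

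Per kilobase of merged exons, Krt18, Krt8, Krt19 and the shared genes were the most abundant, and the luminal Krt4 lay with the basal genes. Median levels over the 30 mice were 397 CPM per kb for Krt18, 171 for Krt8, 169 for Epcam, 157 for Krt19 and 110 for Cdh1. The basal keratins followed with 29.6 CPM per kb for Krt15 and 19.5 for Krt5, and Krt4 had 11.8, Krt14 2.59 and Trp63 2.02. Neighbours in this order did not always keep it: Krt8 exceeded Epcam in 16 of 30 mice, Epcam exceeded Krt19 in 19, Krt5 exceeded Krt4 in 27 and Krt14 exceeded Trp63 in 22. The place of Trp63 below Krt14 rests on the merged exon lengths, 8391 bases for Trp63 and 1758 for Krt14. Before division by length Trp63 had a median of 17.0 CPM and Krt14 of 4.55. The step from Cdh1 to Krt15 held in 30 of 30 mice, and so did those from Krt18 to Krt8, from Krt15 to Krt5 and from Krt4 to Krt14. By the median over the 6 groups the mice varied least in Epcam and Cdh1, with coefficients of variation of 8.21% and 8.85%, and most in Krt14 and Krt4, with 42.9% and 35.6%.

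Several of the genes lie in the mouse keratin clusters. On GRCm38, in GENCODE M21, Krt5 spans chr15:101707070-101712898, Krt4 chr15:101918535-101924735 and Krt8 chr15:101996698-102004482 on the minus strand, and Krt18 spans chr15:102028180-102032027 on the plus strand. The other acidic keratins were on the minus strand, Krt15 at chr11:100131758-100135928, Krt19 at chr11:100140810-100148665 and Krt14 at chr11:100203162-100207548. Trp63 spans chr16:25683763-25892102, Epcam chr17:87635979-87651129 and Cdh1 chr8:106603351-106670246, all on the plus strand. Counts on 3 keratins are less certain because other genes share their sequence. Of all stretches of 100 bases in the annotated transcripts of Krt8, 17.1% also occur in another gene, the pseudogene Krt8-ps or the overlapping antisense Gm36026. The share was 3.81% for Krt5, with Krt6a, Gm44323 and Gm5478, and 2.78% for Krt14, with Krt16. The other 7 genes shared none.

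The RefSeq promoter table held 5 of the 10 genes, Krt5, Krt14, Krt8, Krt18 and Epcam. The 250 bases before the start site are shown for the basal pair Krt5 and Krt14 and for the luminal pair Krt8 and Krt18, because the partners of each pair varied together among the mice. Coordinates are on GRCm38.p6, and sequences run 5′ to 3′ on the strand of the gene. Capitals mark CATG, a form of the core of the site bound by the p53 family of factors, to which TRP63 belongs. The windows are chr15:101712906-101713155 (minus strand) for Krt5, chr11:100206031-100206280 (minus) for Krt14, chr15:102004343-102004592 (minus) for Krt8 and chr15:102027966-102028215 (plus) for Krt18. The RefSeq starts of Krt14, Krt8 and Krt18 lie inside the longer GENCODE spans given above.
Krt5: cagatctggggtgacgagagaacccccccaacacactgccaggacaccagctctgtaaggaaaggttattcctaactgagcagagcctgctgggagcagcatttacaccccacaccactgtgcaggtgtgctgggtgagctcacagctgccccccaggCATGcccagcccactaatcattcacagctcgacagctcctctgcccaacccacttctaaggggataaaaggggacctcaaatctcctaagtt
Krt14: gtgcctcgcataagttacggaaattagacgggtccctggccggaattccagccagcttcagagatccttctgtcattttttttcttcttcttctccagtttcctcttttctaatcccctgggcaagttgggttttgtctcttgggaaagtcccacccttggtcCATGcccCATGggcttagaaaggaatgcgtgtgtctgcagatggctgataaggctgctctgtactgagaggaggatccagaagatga
Krt8: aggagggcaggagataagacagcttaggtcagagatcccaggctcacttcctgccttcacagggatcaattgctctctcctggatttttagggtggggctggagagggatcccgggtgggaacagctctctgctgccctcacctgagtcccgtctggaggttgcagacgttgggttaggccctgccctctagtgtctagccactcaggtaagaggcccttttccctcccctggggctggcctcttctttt
Krt18: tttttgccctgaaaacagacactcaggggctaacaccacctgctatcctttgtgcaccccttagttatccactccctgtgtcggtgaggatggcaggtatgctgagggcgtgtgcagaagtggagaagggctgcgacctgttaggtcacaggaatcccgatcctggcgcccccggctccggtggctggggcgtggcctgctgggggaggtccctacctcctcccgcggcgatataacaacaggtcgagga
On both strands, CATG was found 1 time in the Krt5 window, 2 times in the Krt14 window, 1 time in that of Epcam and 0 times in those of Krt8 and Krt18. The same letters occur in 53.9% of the windows of equal length of 32851 promoters. A longer form of the p53 family site with this core, RRRCATGYYY (R is A or G, Y is C or T), was matched 1 time in Krt5 and in none of the other 4, against 1.63% of all promoters. Sites with other cores were not searched. TATAAA was in none of the 5 windows and in 12.4% of all promoters.

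The first question was whether the lipid source changed the basal or luminal genes at a given time point. At 12 weeks no difference was called among the 10 genes. Of the 10 genes 0 passed an adjusted p-value under 0.05 between PF and SO, between PF and LO or between LO and SO mice with edgeR's quasi-likelihood test, and the background was 0% of 15873 genes in each of these comparisons. Unadjusted p-values under 0.05 were found for 0 of 10 genes in all 3, against 7.99%, 9.24% and 4.28% of all genes. DESeq2 also gave 0 of 10 adjusted calls in each, against 1.29%, 0.519% and 0% of all genes. In bulk tissue, fewer cells of a type and less RNA per cell cannot be told apart, here and in what follows.

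The 12-week levels of the basal genes overlapped between all diets. Krt5 was at 49.8, 33.7, 27.5, 38.7 and 25.9 CPM in LO mice 1 to 5, at 38.6, 38.9, 25.2, 36.5 and 44.8 in SO mice and at 42.4, 52.2, 32.0, 41.5 and 46.1 in PF mice. Krt15 was at 51.8, 38.1, 23.3, 43.3 and 27.1 CPM in LO, at 36.9, 46.0, 34.0, 39.9 and 39.1 in SO and at 42.8, 59.6, 35.2, 40.5 and 55.2 in PF mice. Both keratins had a mean that was highest in PF mice, but the differences were within the spread of the mice. For Krt15 the PF to LO difference was 0.35 ± 0.19 (log2, SE, 95% interval −0.06 to 0.77, edgeR adjusted p = 0.610). Without the 6 mice numbered 1 it was 0.53 (edgeR adjusted p = 0.395). For Krt5 the PF to LO difference then went from 0.29 to 0.45 (edgeR adjusted p = 0.417). Both keratins were under 0.05 before adjustment in this fit. The share of all genes under 0.05 before adjustment was not taken for it. Whether these unadjusted values exceed the background therefore cannot be told. Without the same mice Krt4 went from −0.35 to −0.93 between PF and SO and from −0.40 to −0.73 between PF and LO mice. Still 0 of 10 genes passed the adjustment in each comparison, against 0.00631% of all genes between PF and SO and 0% in the other comparisons.

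At 32 weeks, edgeR again called 0 of 10 genes in each diet comparison, with a background of 0% of 16218 genes in each. The 3 comparisons of a time point share mice and are not independent of each other. Between PF and LO mice, 4 of 10 genes had an unadjusted p-value under 0.05, all lower in PF, where 4.12% of all genes tested were lower and 8.6% differed in either direction. DESeq2 called 1 of them, Krt15, lower in PF at an adjusted p = 0.0293, where it called 0.301% of genes lower and 0.603% in either direction. The 3 basal genes Krt15, Krt5 and Trp63 and the luminal Krt4 were these 4. Markers of other cells differed as well between these groups. The 5 adipocyte genes were all higher in PF, with a median log2 fold change of 1.205 and summed levels of 47.9 to 538 CPM against 44.8 to 275 in LO mice. The 5 secretory genes of the VP were also all higher in PF, with a median of 0.32, and 10 of 14 other basal genes tested were lower, with a median of −0.32. The median over all genes was 0.01. edgeR called 0 genes of these lists, where 0 of 5, 3 of 5 and 4 of 14 were under 0.05 before adjustment, and DESeq2 called 3 of the other basal genes lower. The part of these cells in the basal values was not tested.

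For Krt15, LO mice 1 to 5 had 103, 81.8, 92.7, 64.0 and 91.5 CPM at 32 weeks and PF mice had 65.5, 58.1, 52.9, 43.8 and 59.6. Of the LO mice, 4 lay above all PF mice, and LO mouse 4 lay below PF mouse 1. The log2 fold change was −0.62 ± 0.15 (SE, n = 5 against 5, edgeR adjusted p = 0.330). For Krt5, the LO mice had 99.8, 62.7, 62.2, 46.7 and 55.7 CPM and the PF mice 56.2, 38.6, 39.0, 37.6 and 44.2. The groups overlapped in LO mice 4 and 5 and PF mouse 1, and the log2 fold change was −0.59 ± 0.21 (SE, edgeR adjusted p = 0.451). For Trp63 it was −0.40 ± 0.13 (edgeR adjusted p = 0.392), and for Krt4 −0.71 ± 0.30 (edgeR adjusted p = 0.537). Without the 6 mice numbered 1 the log2 fold changes were −0.62 for Krt15, −0.50 for Krt5, −0.31 for Trp63 and −0.54 for Krt4, and 0 of 10 genes passed, against 0% of all genes.

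Between PF and SO mice at 32 weeks 2 of 10 genes had an unadjusted p-value under 0.05 against 10.8% of all genes. These were Cdh1, at −0.25 ± 0.09 (SE, edgeR adjusted p = 0.403), and Krt4, at −0.75 ± 0.30 (SE, edgeR adjusted p = 0.419), both with lower values in PF. Between LO and SO mice the count was also 2 of 10, against 3.48% of all genes: Krt15 at 0.44 ± 0.15 (SE) and Cdh1 at −0.21 ± 0.09 (SE), neither past the adjustment (edgeR adjusted p = 0.9997 for both). DESeq2 gave 0 of 10 adjusted calls in both, against 0.763% of all genes between PF and SO and 0.0451% between LO and SO mice. The remaining luminal genes, Krt8, Krt18 and Krt19, and Epcam had log2 fold changes between −0.06 and 0.17 in the 3 diet comparisons at 32 weeks. For Krt8 and Krt19 this rested on PF mouse 1. Without it Krt19 was at −0.59 against LO and −0.48 against SO mice and Krt8 at −0.27 and −0.26, none past the adjustment. Without all 6 mice numbered 1 Krt19 was at −0.26 and −0.29 in these comparisons, Cdh1 was at −0.28 and Krt4 at −0.56 between PF and SO, and Krt15 was at 0.35 between LO and SO mice. Of the 10 genes 0 passed then, against 0% of all genes.

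The second question was how the genes differed between 12 and 32 weeks on one diet. Basal genes were higher at 32 weeks in LO and SO mice, whereas no luminal or shared gene was called in any diet. In LO mice Krt15, Krt5 and Trp63 rose, in SO mice Krt15 and Trp63 rose, and in PF mice none of the 10 genes passed. In LO this was 3 of 10 genes called higher, against 1.74% of 16605 genes called higher and 2.7% in either direction. In SO it was 2 of 10 against 5.25% higher and 6.46% in either direction, and in PF 0 of 10 against 0.0301% in either direction. In PF mice 0 of 10 genes had an unadjusted p-value under 0.05, against 10.2% of all genes. DESeq2 called 3 of 10 genes in LO (6.48% of all genes), 2 of 10 in SO (9.14%) and 0 of 10 in PF mice (0.308%).

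**Figure D1:**
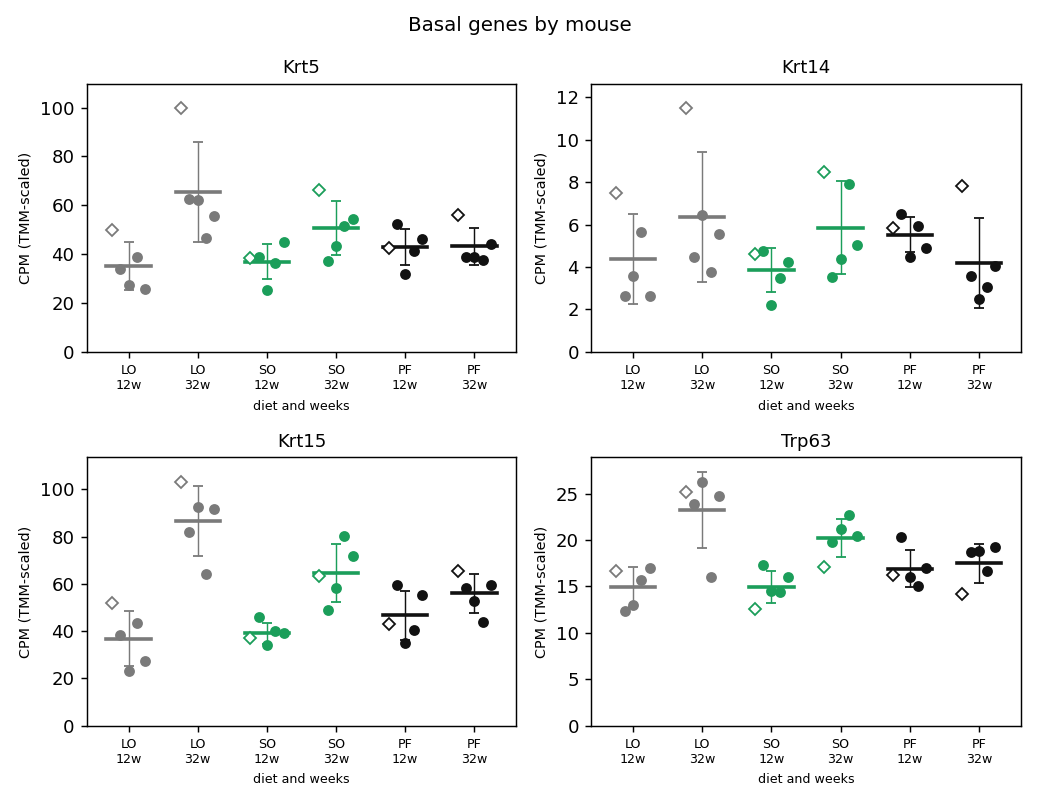
CPM (vertical axis, scaled by TMM) of the 4 basal genes in each mouse, by diet and weeks. Points are mice, open diamonds are the mice numbered 1, and lines and bars give the mean ± SD of 5 mice. The Krt15 values of LO and SO mice at 32 weeks lie above all values of the same diet at 12 weeks.

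Krt15, the acidic basal keratin, went from 36.7 ± 11.7 CPM (SD, n = 5) at 12 weeks to 86.6 ± 14.8 (SD, n = 5) at 32 weeks in LO mice. Set against the 12-week values given above, 64.0 to 103 CPM at 32 weeks left no overlap with 23.3 to 51.8, which held for 1.99% of genes in this direction. The log2 fold change was 1.24 ± 0.18 (SE, edgeR adjusted p = 0.00464), and by its p-value Krt15 ranked 1 of the 16605 genes tested. In SO mice it went from 39.2 ± 4.45 to 64.5 ± 12.2 CPM (SD, n = 5 each), a log2 fold change of 0.72 ± 0.18 (SE, edgeR adjusted p = 0.0180). The SO mice 1 to 5 had 63.3, 48.7, 58.2, 80.4 and 71.8 CPM at 32 weeks, all above the 12-week maximum of 46.0, where 5.13% of genes were separated in this direction. In PF mice Krt15 was at 46.7 ± 10.3 and 56.0 ± 8.17 CPM (SD, n = 5 each), with overlapping values and a log2 fold change of 0.26 ± 0.18 (SE, 95% interval −0.11 to 0.63).

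Trp63, the basal transcription factor, was at 16.7, 12.3, 12.9, 15.7 and 17.0 CPM in LO mice 1 to 5 at 12 weeks and at 25.2, 23.9, 26.3, 16.0 and 24.8 at 32 weeks. Only LO mouse 4 at 32 weeks fell within the 12-week range. The log2 fold change was 0.64 ± 0.12 (SE, edgeR adjusted p = 0.0123), rank 26 by p-value. In SO mice the values went from 12.6, 17.3, 14.5, 14.4 and 16.0 CPM to 17.1, 19.8, 21.2, 22.6 and 20.4, with SO mouse 1 at 32 weeks just under SO mouse 2 at 12 weeks. The log2 fold change was 0.44 ± 0.12 (SE, edgeR adjusted p = 0.0332). In PF mice the means were 16.9 ± 2.02 and 17.5 ± 2.12 CPM (SD, n = 5 each), a log2 fold change of 0.05 ± 0.12 (SE, 95% interval −0.21 to 0.30).

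Krt5, the basic partner of both acidic basal keratins, rose in LO mice from 35.1 ± 9.64 to 65.4 ± 20.3 CPM (SD, n = 5 each), a log2 fold change of 0.90 ± 0.20 (SE, edgeR adjusted p = 0.0174). The groups overlapped, since LO mouse 1 at 12 weeks, with 49.8 CPM, lay above LO mouse 4 at 32 weeks. In SO mice Krt5 was at 66.2, 37.4, 43.2, 51.7 and 54.5 CPM at 32 weeks, with a log2 fold change of 0.46 ± 0.20 (SE, edgeR adjusted p = 0.179). In PF mice the log2 fold change was 0.01 ± 0.20 (SE, 95% interval −0.39 to 0.41). Krt14, the scarcest basal keratin, was called in no diet. Its values at 12 and 32 weeks were 4.39 ± 2.13 and 6.35 ± 3.06 CPM in LO, 3.85 ± 1.04 and 5.86 ± 2.20 in SO and 5.53 ± 0.817 and 4.20 ± 2.12 in PF mice (SD, n = 5 each).

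Without the 6 mice numbered 1 the same calls were made, where 2.78% of all genes passed in LO, 8.88% in SO and 0% in PF mice. In LO mice the log2 fold changes were then 1.33 for Krt15 (edgeR adjusted p = 0.0138), 0.86 for Krt5 (edgeR adjusted p = 0.0215) and 0.66 for Trp63 (edgeR adjusted p = 0.0215). In SO mice they were 0.71 for Krt15 (edgeR adjusted p = 0.0321) and 0.44 for Trp63 (edgeR adjusted p = 0.0411). Some calls rested on single mice. Krt5 in LO lost its call without LO mouse 3 at 12 weeks (edgeR adjusted p = 0.0586). With only the 10 LO mice in the fit, Krt5 and Trp63 in LO did not pass (edgeR adjusted p = 0.0976 and 0.0808). Krt15 in SO lost it without SO mouse 4 at 32 weeks, where the log2 fold change was 0.62 (edgeR adjusted p = 0.0821). Trp63 in SO lost it without any one of 8 mice, numbers 1, 3, 4 and 5 at 12 weeks and 2, 3, 4 and 5 at 32 weeks (edgeR adjusted p from 0.0590 to 0.128). Over the 19 alternatives tried, Krt15 in LO passed in 19, with a log2 fold change between 1.13 and 1.41. The highest adjusted p-value over these edgeR and DESeq2 fits was 0.0499, just under the threshold.

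The scaling moves the zero of these changes. Under TMM the median log2 change of all genes between the time points was −0.01 in LO and −0.00 in SO mice, and with scaling by total counts it was 0.16 and 0.19. With total counts all genes called higher and lower went from 289 and 159 to 1323 and 52 in LO, and from 871 and 202 to 2770 and 32 in SO. The basal changes by total counts, not corrected for that median, were 1.41 for Krt15, 1.08 for Krt5 and 0.81 for Trp63 in LO mice. In SO mice they were 0.91 for Krt15, 0.63 for Trp63 and 0.65 for Krt5, and Krt5 then passed (edgeR adjusted p = 0.0350), as did Cdh1 at 0.37 (edgeR adjusted p = 0.0118). At 32 weeks the median of all genes moved to −0.17 between PF and LO and to −0.15 between PF and SO mice.

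**Figure D2:**
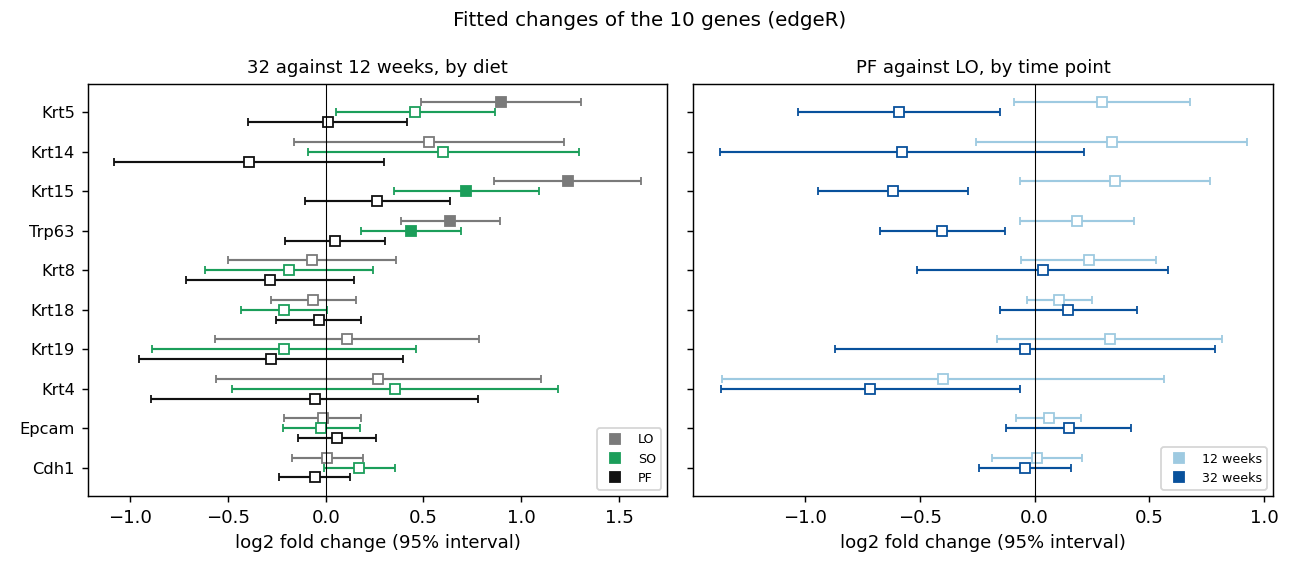
Log2 fold changes of the 10 genes (horizontal axis) with their 95% intervals from edgeR, 32 against 12 weeks for each diet on the left and PF against LO at each time point on the right. Filled squares mark an adjusted p-value under 0.05: Krt5, Krt15 and Trp63 in LO and Krt15 and Trp63 in SO mice.

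Whether the change with time differed between the diets was tested as an interaction. edgeR called 0 of 10 genes in each of the 3 interactions, with a background of 0% of 16605 genes, and DESeq2 called 0 of 10 against 0.264% of genes for PF and SO, 0.106% for PF and LO and 0% for LO and SO. Without the mice numbered 1, edgeR also called 0 of 10 against 0%. The difference of PF against LO between 32 and 12 weeks had an unadjusted p-value under 0.05 in 3 of 10 genes, against 7.79% of all genes: Krt15 at −0.97 ± 0.26, Krt5 at −0.89 ± 0.28 and Trp63 at −0.59 ± 0.17 (log2, SE, edgeR adjusted p = 0.452, 0.481 and 0.452). For PF against SO it was 2 of 10 genes against 9.49%, Krt14 at −0.995 ± 0.476 and Trp63 at −0.39 ± 0.18 (SE, edgeR adjusted p = 0.518 and 0.465). For LO against SO it was 0 of 10 against 3.33%. The calls in LO and SO mice and their absence in PF mice therefore do not show that the diets differed in this change.

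The balance of the layers in a mouse was taken as the mean log2 CPM of the 4 basal genes minus that of the 4 luminal genes. It describes the same values again and was not tested. In LO mice 1 to 5 it was −3.39, −3.50, −3.57, −3.51 and −3.57 at 12 weeks and −2.79, −2.78, −2.25, −3.36 and −2.67 at 32 weeks. All 5 later mice were above all 5 earlier mice, LO mouse 4 only by a narrow margin. In SO mice it was −3.77, −3.42, −3.88, −3.52 and −3.62 at 12 weeks and −3.33, −3.19, −3.06, −2.27 and −3.20 at 32 weeks, again without overlap. In PF mice it was −3.83, −3.01, −3.16, −3.20 and −3.08 at 12 weeks and −3.42, −3.01, −3.14, −3.09 and −2.95 at 32 weeks. The PF values at both time points covered much the same range.

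The mean balance was higher at 32 weeks by 0.74 in LO, 0.63 in SO and 0.13 in PF mice, with pooled SDs of 0.28, 0.33 and 0.27. Without the 6 mice numbered 1 these differences were 0.77, 0.68 and 0.06. With any single mouse left out they ranged from 0.61 to 0.89 in LO, 0.45 to 0.71 in SO and −0.01 to 0.21 in PF. Expressed on the linear scale, the summed basal CPM was 7.36% ± 1.24 of the summed luminal CPM in LO mice at 12 weeks and 15.2% ± 3.22 at 32 weeks (SD, n = 5 each). In SO mice it was 7.08% ± 1.25 and 12.2% ± 3.12, and in PF mice 8.11% ± 1.70 and 10.3% ± 2.26. Between diets at one time point the balances of all mice overlapped in every comparison. At 12 weeks the overlap of PF with the other diets came from PF mouse 1, and the other 4 PF mice, at −3.20 to −3.01, lay above all LO and SO mice. Other forms of the balance did not separate these 4 mice. On the linear scale PF mice 3 and 4 had 7.10% and 7.23%. LO mice 1 and 4 had 8.52% and 8.51%, and SO mouse 2 had 8.78%. With only Krt8 and Krt18 as luminal genes PF mice 3 and 4 had −4.72 and −4.69. The same LO and SO mice had −4.41, −4.48 and −4.46. The PF mean of the balance over all 8 genes was higher by 0.25 than LO and by 0.39 than SO at 12 weeks, and by 0.43 and 0.50 without the mice numbered 1. At 32 weeks the PF mean was below LO by a difference of −0.35 and below SO by −0.11, or −0.28 and −0.12 without those mice.

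**Figure D3:**
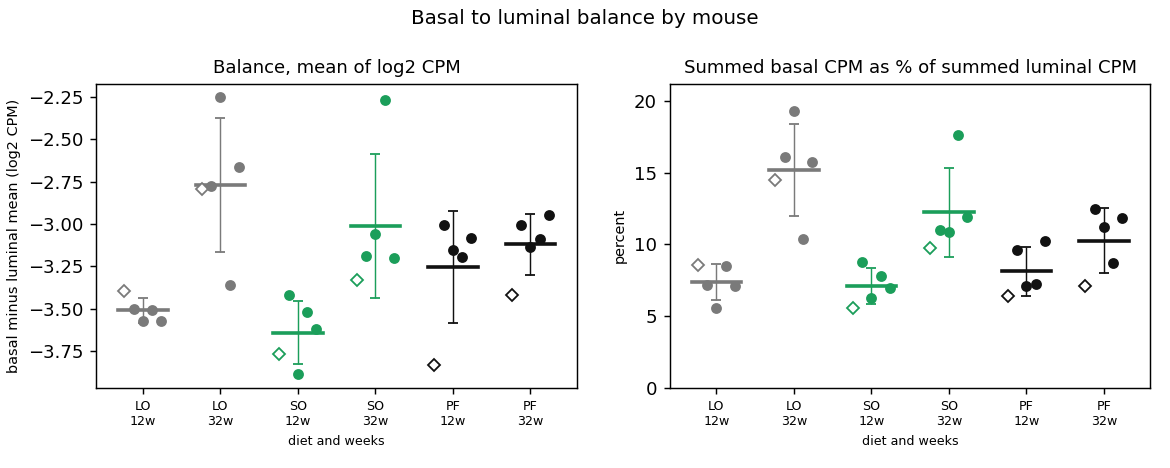
Basal to luminal balance of each mouse by diet and weeks, as the difference of mean log2 CPM (left) and as summed basal CPM in percent of summed luminal CPM (right, axis from 0). Points are mice, open diamonds the mice numbered 1, lines and bars the mean ± SD of 5 mice. On the left, LO and SO mice at 32 weeks lie above those at 12 weeks, and PF mice overlap.

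Krt8 and Krt19 were highest in the mice numbered 1, on every diet and at both time points. Krt8, the main basic luminal keratin, was at 424 to 575 CPM in the 6 mice numbered 1 and at 252 to 406 CPM in the other 24. Krt19, an acidic keratin that lacks most of the tail domain, was at 405 to 662 CPM in the mice numbered 1 and at 171 to 393 in the others. Both were highest in 6 of 6 groups, as were the 9.24% of all genes given above. Mouse 1 had 1.29 to 2.09 times the mean Krt8 of the other mice of its group and 1.55 to 3.18 times the mean Krt19. Krt18 was highest in mouse 1 in 3 of 6 groups, Krt5 and Krt14 in 4, Krt15 in 3 and Trp63 in 0.

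**Figure D4:**
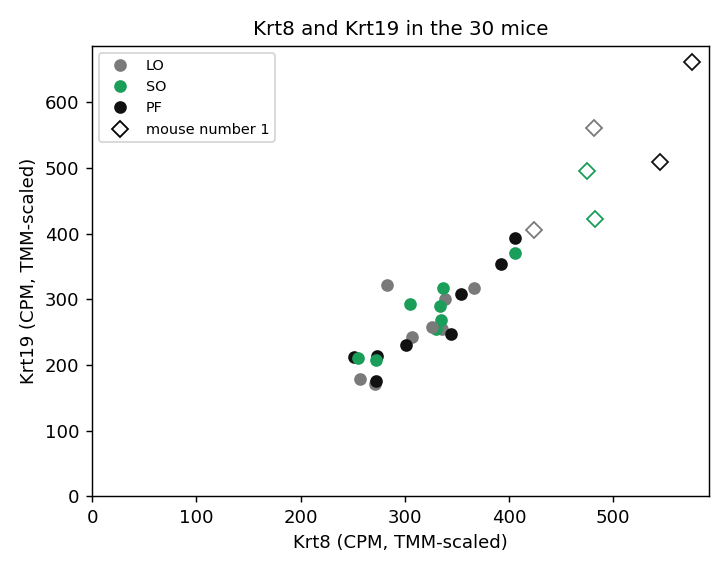
Krt19 (vertical axis) against Krt8 (horizontal axis) in the 30 mice, both in CPM from 0. Colours give the diet and open diamonds the mice numbered 1, which take the 6 highest values of both genes.

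**Figure D5:**
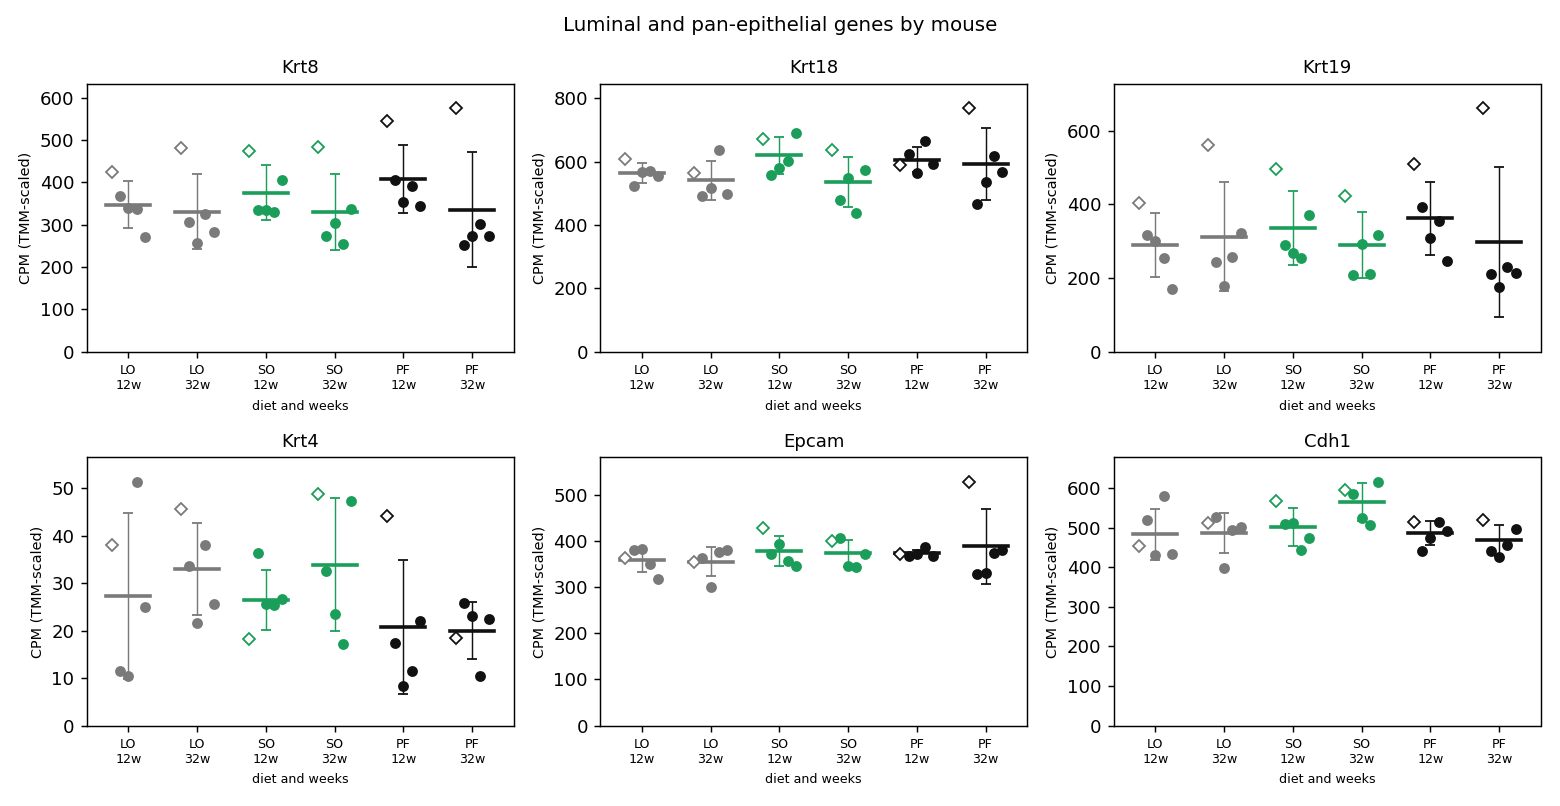
CPM (vertical axis, scaled by TMM) of the luminal genes Krt8, Krt18, Krt19 and Krt4 and of Epcam and Cdh1 in each mouse, by diet and weeks. Points are mice, open diamonds the mice numbered 1, lines and bars the mean ± SD of 5 mice. Diamonds are highest in all 6 groups for Krt8 and Krt19.

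With time, the log2 fold changes of the luminal genes in LO mice were −0.07 ± 0.21 for Krt8, −0.06 ± 0.11 for Krt18, 0.11 ± 0.33 for Krt19 and 0.27 ± 0.41 for Krt4 (SE). In SO mice they were −0.19 ± 0.21, −0.21 ± 0.11, −0.21 ± 0.33 and 0.36 ± 0.41, and in PF mice −0.29 ± 0.21, −0.04 ± 0.11, −0.28 ± 0.33 and −0.05 ± 0.41. For Krt4 the 95% interval in LO mice ran from −0.56 to 1.10, and a rise as large as that of Krt5 lies inside it. Krt18 had a narrower interval in LO, −0.28 to 0.16. Krt4 had the highest median coefficient of variation of the luminal genes, 35.6% against 30.1% for Krt19, although Krt19 varied more in 3 of 6 groups. Krt4 was for example at 38.0, 11.5, 10.5, 51.3 and 25.0 CPM in LO mice 1 to 5 at 12 weeks.

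Epcam and Cdh1 had the lowest median coefficients of variation within groups, although Krt18, with 5.47%, was steadier than Epcam (7.23%) and Cdh1 (13.3%) in LO mice at 12 weeks. Epcam was at 359 ± 26.0 and 356 ± 32.1 CPM in LO mice at 12 and 32 weeks, 379 ± 32.6 and 374 ± 29.2 in SO and 374 ± 8.02 and 389 ± 81.8 in PF mice (SD, n = 5 each). The 95% interval of its change with time in LO mice was −0.21 to 0.18 on the log2 scale. Cdh1 was at 484 ± 64.3 and 487 ± 50.4 CPM in LO, 502 ± 46.8 and 565 ± 47.3 in SO and 487 ± 30.6 and 468 ± 39.1 in PF mice. Its largest change with time, 0.17 ± 0.09 in SO mice, did not pass under TMM (edgeR adjusted p = 0.289) and passed with scaling by total counts, as given above.

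Pairs of genes were then compared over mice after each group's mean was subtracted from the log2 CPM. Among 45 pairs 18 passed an adjusted permutation p-value under 0.05 in 30 mice, and 5 passed in the 24 mice without those numbered 1. Because these mice hold the highest values of Krt8 and Krt19, values are given for the 24 others. Krt5 followed Krt15 (r = 0.82, rho = 0.79, adjusted permutation p = 0.00135 for r and 0.0051 for rho) and Krt14 (r = 0.73, rho = 0.75, adjusted permutation p = 0.0104 and 0.0051), and Krt14 followed Krt15 (r = 0.65, rho = 0.63, adjusted permutation p = 0.0275 and 0.0473). Leaving out the 2 mice farthest from the median of the first gene gave r = 0.85, 0.70 and 0.60. The basal keratins thus varied together from mouse to mouse.

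Of the luminal keratins, Krt8 followed Krt19 (r = 0.82, rho = 0.81, adjusted permutation p = 0.0045 and 0.0051) and Krt18 (r = 0.67, rho = 0.62, adjusted permutation p = 0.0133 and 0.0501), and r was 0.84 and 0.61 without the 2 farthest mice. Krt5 and Krt8 gave r = 0.31 (rho = 0.26, adjusted permutation p = 0.380 and 0.507). Trp63 was related less closely to the basal keratins, with r = 0.56 to Krt15 and 0.45 to Krt5 (rho = 0.52 and 0.51, adjusted permutation p for r = 0.102 and 0.182). Trp63 and Epcam were inversely related in 30 mice (r = −0.63, rho = −0.62, adjusted permutation p = 0.00101 and 0.00788), but r was −0.55 in the 24 mice (adjusted permutation p = 0.182) and −0.25 in 30 mice with scaling by total counts (adjusted permutation p = 0.255). Within all 15 mice of a time point, those numbered 1 included, 3 pairs passed at 12 weeks and 12 at 32 weeks.

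Among 13752 other genes, those whose log2 CPM over the 30 mice was most like that of Krt5 were Krt14 (r = 0.86), Lgi3 (r = 0.86), Epha2 (r = 0.85), Col18a1 (r = 0.84) and Krt17 (r = 0.83). In the 24 mice their r lay between 0.69 and 0.76. For Krt8 they were Znhit1 and Bicdl2 (r = 0.96), Cdc37, Hspbp1 and Mvb12a (r = 0.95), with 0.73 to 0.87 in the 24 mice. For Krt4 they were Mgat3 (r = 0.90), Scnn1a and Aspa (r = 0.89) and Slc39a4 (r = 0.88), and these were 0.84 to 0.91 in the 24 mice. Krt8 itself ranked 2037 in likeness to Krt4, with r = 0.28. These values are descriptions, and the points share library depth and scaling.

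Further genes of the 2 layers were read from lists, whose edgeR counts stand against 1.74% of all genes called higher by edgeR in LO and 5.25% in SO mice. With time, unadjusted edgeR p-values under 0.05 were found for 20.5% of all genes in LO, 19.7% in SO and 10.2% in PF mice. Of 14 other basal genes tested, 2 rose between 12 and 32 weeks in LO mice, Cdh3 (P-cadherin) at 0.60 ± 0.14 (log2, SE, edgeR adjusted p = 0.0228) and Col17a1, the collagen of hemidesmosomes, at 0.93 ± 0.22 (SE, edgeR adjusted p = 0.0231). The median of the list was 0.21 in LO, 0.24 in SO and −0.11 in PF mice, against −0.01, −0.00 and 0.00 for all genes, and 0 of 14 passed in SO and in PF with edgeR, where 5 and 0 were under 0.05 before adjustment. DESeq2 called 4 in LO and 0 in SO and PF, against 6.48%, 9.14% and 0.308% of all genes called by DESeq2 in LO, SO and PF mice. Krt17 was at 0.62 and Lamb3, a laminin chain of the basement membrane, at 0.57 in LO mice without passing. Both were named after their values were seen and lie above the list median of 0.21, so they do not stand for the list. The summed level of the other basal genes hardly differed in LO mice, with 735 to 791 CPM at 12 weeks and 726 to 852 at 32 weeks. Its medians at 12 and 32 weeks were 778 and 777 CPM in LO, 773 and 797 in SO and 758 and 709 in PF mice. Among all 19 keratins tested in the family, 3 passed in LO mice (Krt15, Krt5 and Krt222) and 3 in SO mice (Krt15, Krt222 and Krt6a), all higher, and 0 in PF mice.

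Of 10 genes of proximal luminal cells, the cells near the urethra, Ly6d rose in LO mice at 2.26 ± 0.48 (log2, SE, edgeR adjusted p = 0.0148). In SO mice 3 rose, Ly6a at 1.78 (edgeR adjusted p = 0.0103), Ly6d at 2.01 (edgeR adjusted p = 0.0129) and Clu at 1.12 (edgeR adjusted p = 0.0497). The list medians were 0.63 in LO, 1.08 in SO and 0.18 in PF mice, where 0 of 10 passed. Of 8 other luminal genes 0 passed in LO and PF mice and 1 in SO mice with edgeR, Prom1 at 1.04 (edgeR adjusted p = 0.0386), and DESeq2 called 1 in LO, 2 in SO and 0 in PF mice. DESeq2 called 2, 6 and 0 of the proximal luminal genes. Its calls over all genes were 6.48% in LO, 9.14% in SO and 0.308% in PF mice. Of 25 junction and adhesion genes 1 passed with edgeR, the desmosomal Pkp1 in LO mice at 0.77 ± 0.14 (SE, edgeR adjusted p = 0.0112). Of 15 epithelial regulators tested 0 passed in any diet with either tool. Unadjusted edgeR p-values under 0.05 were found for 3, 3 and 1 in LO, SO and PF, against 20.5%, 19.7% and 10.2% of all genes. Of 8 genes of mesenchymal transition 1 passed, Snai2, a transcriptional repressor of Cdh1, in LO mice at 0.83 ± 0.14 (SE, edgeR adjusted p = 0.00724).

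Markers of other cell types also differed between the time points. Their unadjusted counts stand against 20.5% of all genes under 0.05 in LO, 19.7% in SO and 10.2% in PF mice. Their DESeq2 counts stand against 6.48% of all genes called by DESeq2 in LO, 9.14% in SO and 0.308% in PF mice. The summed level of 5 secretory genes of VP luminal cells was 206617 to 326315 CPM at 12 weeks and 110835 to 201512 at 32 weeks in LO, 228982 to 320738 and 146601 to 173174 in SO and 180952 to 338522 and 128498 to 300974 in PF mice. Of these 5 genes Sbp passed, falling in LO by 0.81 and in SO by 0.96 on the log2 scale (edgeR adjusted p = 0.0410 and 0.0100). The 6 leukocyte genes summed to 102 to 138 CPM at 12 weeks and 179 to 463 at 32 weeks in SO mice, where 5 of 6 rose against 5.25% of all genes. They summed to 86.7 to 223 and 135 to 377 CPM in LO mice, where all 6 had positive log2 fold changes with a median of 0.91, edgeR called 0 of 6 (4 were under 0.05 before adjustment) and DESeq2 called 3. In PF mice they summed to 121 to 359 and 164 to 285, and 0 of 6 passed with either tool or at an unadjusted p-value under 0.05. Of the fibroblast genes edgeR called 0 of 5 in any diet (2, 1 and 0 were under 0.05 before adjustment in LO, SO and PF), and DESeq2 called 2 in LO mice, where their median was 0.47 and their summed levels were 504 to 925 and 683 to 1475 CPM. The 5 skeletal muscle genes had positive log2 fold changes in LO and SO mice, with medians of 2.95 and 2.15, and edgeR called 0 (3 and 1 were under 0.05 before adjustment) and DESeq2 1 in LO. Their summed level was 63.4 to 162 CPM at 12 weeks and 68.1 to 572 at 32 weeks in LO and 83.8 to 124 and 55.7 to 288 in SO mice, and Myh4 was at 0 in 5 of 30 mice. The 4 endothelial genes were positive in LO and SO mice, with medians of 0.35 and 0.32, and edgeR called 1, Emcn, in SO mice, as DESeq2 did with 1 gene. The 5 smooth muscle genes had negative log2 fold changes in all 3 diets, with medians of −0.27 in LO, −0.12 in SO and −0.16 in PF, and 0 were called by either tool (1, 0 and 2 at an unadjusted p-value under 0.05). The part of these cell types in the basal changes was not tested.

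Urothelium and epidermis also express KRT5, KRT14 and TRP63. Of 5 urothelial genes, Upk3a was at 0 in 25 of 30 mice, Krt20 did not exceed 0.311 CPM and Upk2 did not exceed 1.64. Upk1a was at 189 to 622 CPM and Upk1b at 51.3 to 111 in all mice, and they made up nearly all of the sum. The summed level of the 5 genes was 429 to 615 CPM at 12 weeks and 382 to 517 at 32 weeks in LO mice and 477 to 693 and 266 to 492 in SO mice, where Upk1a fell by 0.80 on the log2 scale (edgeR adjusted p = 0.00755). The 4 epidermal genes matched summed to at most 3.92 CPM in any mouse. By median the sum of the 5 urothelial genes, mostly Upk1a and Upk1b, went from 500 to 401 CPM in LO mice and from 563 to 351 in SO mice.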

How the data were processed

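VP RNA with an integrity number above the study's limit was turned into libraries with the TruSeq Stranded mRNA kit and sequenced as read pairs of 100 bases. Per the labels, the submitters' processing notes name TopHat, TopHat2, HTSeq, DESeq2 and the build GRCm38.p6. The authors used HTSeq for counting, and the deposited values are raw counts of read pairs on each gene, 1 table per mouse. The annotation release and strand setting of the counting are not given in the sources used here. Tally rows that name no gene held 23.7% to 32.2% of the read pairs and were left out. Of 39179 gene identifiers, 37607 matched a symbol of GENCODE M21.

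All 30 mice were grouped by the diet and time in their labels. Counts were filtered by filterByExpr, scaled by TMM and compared by edgeR's quasi-likelihood F test (edgeR 4.0.16, R 4.3.3, two-sided) with Benjamini-Hochberg adjustment over all genes and a threshold of 0.05. The 3 diets of a time point shared one fit, and changes with time and interactions came from one fit of all 6 groups. Log2 CPM had a prior count of 2. The alternatives were DESeq2 1.42.0, other scalings and filters, fits of fewer groups, the replicate block and each mouse left out in turn. Scaling by total counts in the fits and the omission of the 6 mice numbered 1 were added after seeing the data. Correlations used 100000 permutations within groups, in Python with scipy, and no p-value below 1e-05 could be reached. Scripts were tested on simulated data.

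The counts in each comparison cover all 10 genes, but levels and fold changes are printed for only some of them. From each list at most 4 genes were named, by adjusted p-value among those past the threshold, and Krt17 and Lamb3 were named outside this rule after their values were seen. The genes and lists were chosen with earlier results of these data known. No 2 of the 60 pairs of mice within groups had counts that differed by sampling noise alone. Intervals are 95% confidence intervals of the fitted log2 fold changes, whose SE rests on the variation between these mice, and they are not ranges of single mice. The protein sequences and 5 of the promoters were not used here. For Krt4, 1 of the 5 genes most like it is not reported here.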

Additional observations from a re-analysis of the deposited data

Results flagged for a closer look

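Of 66 sets of 5 mice (10 genes and the balance in 6 groups), 8 held a mouse that Dixon's test set apart from the others of its group, and chance alone flags about 1 in 20 sets. Of these flags, 3 came from PF mouse 1 at 32 weeks, which had 575 CPM of Krt8 (252 to 302 in the other 4 mice), 662 CPM of Krt19 (176 to 230) and 529 CPM of Epcam (329 to 380). PF mouse 1 at 12 weeks had the lowest balance of its group, −3.83, against −3.20 to −3.01 in the others.

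LO mouse 4 at 32 weeks had 16.0 CPM of Trp63, against 23.9 to 26.3 in the other 4 mice. LO mouse 3 at 32 weeks had 399 CPM of Cdh1, against 494 to 526. PF mouse 4 at 12 weeks had 388 CPM of Epcam, against 368 to 373, a narrow range in all 5 mice. SO mouse 4 at 32 weeks had a balance of −2.27, against −3.33 to −3.06 in the others, and it is the mouse without which no basal gene was called in SO.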

How the results depend on the processing

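Of 2550 alternative values of the log2 fold changes of the 10 genes, 2485 kept their direction and their side of the threshold or moved by less than their SE, 49 moved by more, 13 lost and 3 gained a call, and 0 called values reversed. The counts of genes past the threshold changed as follows. PF against LO at 32 weeks gave 1 with DESeq2. In LO mice with time the count was 1 with only the 2 groups compared, where Krt5 had an edgeR adjusted p = 0.0976 and Trp63 0.0808. In SO mice with time it was 1 without a filter on low counts (Trp63, edgeR adjusted p = 0.0574) and 4 with scaling by total counts. With a mouse left out the count ranged from 2 to 3 in LO and from 0 to 2 in SO mice. The LO balance difference was 1.03 as a log2 ratio of summed CPM, and other balance differences moved by less than 1 pooled SD. Correlated pairs numbered 5 without the mice numbered 1. Within 12 weeks, with those mice included, they numbered 3. The causes were not tested. The same-numbered mice are not said to be related, and their deviations correlated by 0.0559 on average at 12 weeks and 0.132 at 32 weeks, above 0.1 in 5 and 10 of 15 pairs, so the numbers were not taken as pairs. Between the mice numbered 1 the correlations were higher, 0.309 to 0.466 at 12 weeks and 0.366 to 0.495 at 32 weeks. Same-numbered mice of numbers 2 to 5 averaged −0.0302 and 0.0582. With the replicate block the counts were 3 in LO, 2 in SO and 0 in every other comparison. Depth limits Krt14 most, with as few as 66 counts in a mouse.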
